A study of Mus musculus with 5 samples.

Results

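The retinoic acid uptake and signalling genes are 9 loci of the mouse genome, Stra6, Crabp1, Crabp2, Rara, Rarb, Rxra, Rxrg, Cyp26b1 and Aldh1a2, at which NEUROD2 binding was read from ChIP-Seq peaks. NEUROD2 is a neuronal basic helix-loop-helix transcription factor that binds E-boxes. For each gene, peaks were taken whose midpoint lay in the span of its longest annotated transcript or up to 50 kb beyond either end, and overlapping peaks were merged into regions. This gave 122 peaks in 69 regions, out of 53833 regions in the whole genome, at 9 of the 21938 protein-coding genes. The genes were chosen by pathway, with earlier results of these peaks known. Stra6 was selected on its closest-gene score, which sums nearby regions around a transcription start site (TSS). The score of Stra6 and its number of regions are therefore descriptions and were not tested.

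The chromatin came from E14.5 BALB/c mouse cortex, with no further genotype, treatment or contrast between groups. Embryos of several litters were pooled for each experiment. NEUROD2 was precipitated with a mouse antibody (ab1) and with 2 rabbit antibodies (ab2 and ab3), 1 library each. GFP antibodies of both hosts served as the background against which the authors called peaks, and ab2 and ab3 shared 1 of the 2 GFP libraries. The deposited lists hold between 7470 peaks (ab3) and 51841 peaks (ab1), with 35310 for ab2. Each peak has a score, 10 times the −log10 p-value of the peak caller, which starts at 50 and was not scaled between libraries. The lists hold no read counts, so the depth behind a peak is unknown, and no expression values, so the tissue was not checked against marker genes. In whole cortex, the number of bound cells and the binding per cell cannot be told apart.

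Retinoic acid is made from vitamin A and acts as a diffusible signal in the developing brain. Retinol enters cells through STRA6, a membrane receptor for retinol-binding protein, and is oxidised to retinoic acid in a last step by ALDH1A2, which in the embryonic forebrain is known from the meninges. CRABP1 and CRABP2 carry retinoic acid in the cytosol, CYP26B1 degrades it, and heterodimers of RARs (here Rara and Rarb) with RXRs (Rxra and Rxrg) bind DNA and switch target genes when the ligand is present.

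The sequences of the regions on which the results turn are given 5′ to 3′ on the plus strand of GRCm38 (mm10), from the RefSeq copy of that build. Capitals mark the extended E-box, which was searched on both strands. Its core is CAGCTG, or CAGATG in either orientation, or else CATATG, with G or T as the next base. A site that matched on both strands was counted once, and its capitals then run over both matches. At Stra6, the far upstream region with the highest scores, the region at the TSS of the longest transcript and the widest region are shown by their central 200 bp, and the region next to the coding starts by 30 bases around its pair of E-boxes.
Stra6 far upstream region, chr9:58035703-58035902: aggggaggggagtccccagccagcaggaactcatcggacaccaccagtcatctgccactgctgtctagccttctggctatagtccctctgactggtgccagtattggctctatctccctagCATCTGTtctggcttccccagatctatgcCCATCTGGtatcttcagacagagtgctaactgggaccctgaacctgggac
Stra6 region at the longest TSS, chr9:58063830-58064029: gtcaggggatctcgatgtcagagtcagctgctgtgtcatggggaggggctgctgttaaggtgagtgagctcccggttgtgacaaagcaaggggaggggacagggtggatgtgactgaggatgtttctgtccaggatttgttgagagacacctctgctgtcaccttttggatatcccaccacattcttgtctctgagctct
Stra6 widest region, chr9:58112061-58112260: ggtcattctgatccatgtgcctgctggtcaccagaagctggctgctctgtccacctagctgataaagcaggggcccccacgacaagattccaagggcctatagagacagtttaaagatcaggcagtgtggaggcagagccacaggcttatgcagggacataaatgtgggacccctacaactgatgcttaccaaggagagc
Stra6 region near the coding starts, chr9:58135133-58135162: gggtgACAGATGactacagCAGCTGGtaca

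For the binding proteins, receptors and the degrading enzyme, the central 200 bp of a leading region are shown, with a window of 30 bases for Rxrg because the site lies in an untranslated region. At Rara the intron 4 region had the highest ab1 score and the intron 1 region the highest ab2 score, and the centre of the latter is printed because it holds an E-box.
Crabp1 downstream region, chr9:54816967-54817166: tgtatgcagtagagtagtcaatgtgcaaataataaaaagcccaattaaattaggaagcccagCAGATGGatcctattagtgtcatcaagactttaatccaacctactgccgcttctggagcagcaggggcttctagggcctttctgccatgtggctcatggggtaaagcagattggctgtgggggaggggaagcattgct
Rara intron 1 region, chr11:98941210-98941409: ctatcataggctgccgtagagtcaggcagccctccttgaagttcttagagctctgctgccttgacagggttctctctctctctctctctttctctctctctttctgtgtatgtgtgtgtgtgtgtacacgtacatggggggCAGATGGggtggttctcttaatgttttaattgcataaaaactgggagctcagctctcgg
Rxra intron 4 region, chr2:27746719-27746918: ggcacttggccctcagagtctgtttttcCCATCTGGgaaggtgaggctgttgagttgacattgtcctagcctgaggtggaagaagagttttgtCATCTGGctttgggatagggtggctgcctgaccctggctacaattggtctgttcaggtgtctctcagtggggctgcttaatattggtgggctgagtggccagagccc
Rxrg exon 1 site, chr1:167598472-167598501: tactgacaggcaCCAGCTGctgcggccgcc
Cyp26b1 exon 2 region, chr6:84587744-84587943: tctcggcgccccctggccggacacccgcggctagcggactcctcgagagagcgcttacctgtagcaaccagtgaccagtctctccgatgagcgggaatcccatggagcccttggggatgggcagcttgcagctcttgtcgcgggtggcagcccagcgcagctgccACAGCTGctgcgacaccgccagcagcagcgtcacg

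Over the whole set, the 9 loci were bound about as widely as other genes, and Stra6 held 51.2% of the regions with at least 2 antibodies. Of the 69 regions, 41 had peaks of at least 2 antibodies (59.4%) and are called shared here, beside 59.9% of all merged regions of the genome. All 3 antibodies were found in 8 regions (11.6%), beside 13.3% genome-wide. Of the 28 regions with 1 antibody, 26 were of ab1 (37.7% of the 69, beside 35% genome-wide), 2 of ab2 (2.90%, beside 4.91%) and 0 of ab3 (beside 0.189%). At least 1 shared region was present at 6 of the 9 loci (66.7%), beside 67.6% of all protein-coding genes treated alike. A region with all 3 antibodies was present at 3 loci (33.3%), Stra6, Rxra and Rxrg, beside 26.7% of protein-coding genes. With either ab1 or ab2 left out, 8 shared regions at 3 loci were counted, and with ab3 left out 41 at 6 loci. The shares of the loci were near the background in each of these counts, and nothing about the set is read from them.

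The number of peaks differed between the antibodies at 8 of the 9 loci, Rxrg being the exception. Inside the windows, ab1 had 70 peaks, ab2 had 44 and ab3 had 8, or 40.7 ± 31.1 (SD, n = 3 antibodies). These were 0.135%, 0.125% and 0.107% of each list, from windows that make up 0.0579% of the chromosomes. Per megabase, ab1 had 44.4 peaks in the windows against 19 genome-wide, ab2 27.9 against 13, and ab3 5.07 against 2.74. Without the Stra6 window these densities were 30.7, 15 and 1.43 peaks per megabase, so that ab3 was then below its genome-wide density. The genome-wide densities are over whole chromosomes and not over windows around genes. In windows laid alike, the median gene of the set had 0.820 shared regions per 100 kb, beside 0.95 over all protein-coding genes.

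**Figure D1:**
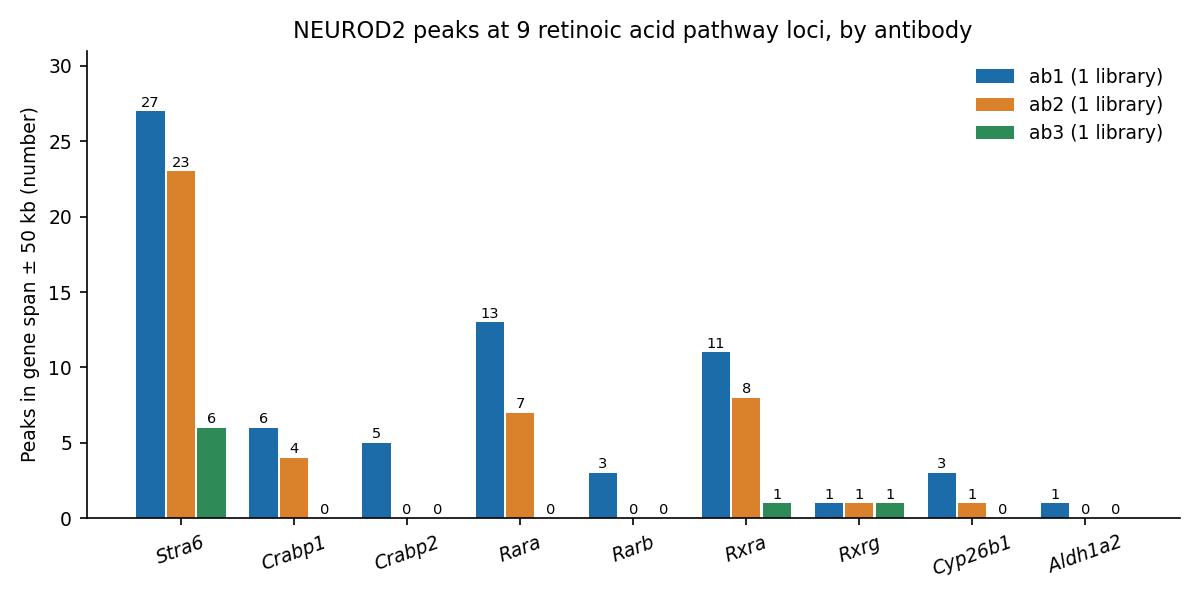
Number of peaks (y axis) of each antibody within the gene span plus 50 kb on either side, for the 9 loci (x axis). Each bar is 1 library, so there are no error bars. Stra6 had 27, 23 and 6 peaks of ab1, ab2 and ab3, the highest bar of each antibody, and Crabp2, Rarb and Aldh1a2 had peaks of ab1 alone.

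Stra6, the retinol uptake receptor, held 27 regions, 21 of them shared and 6 with all 3 antibodies. Its peak numbers were 27 for ab1, 23 for ab2 and 6 for ab3, or 18.7 ± 11.2 (SD, n = 3). With 11.8 shared regions per 100 kb, the 178 kb window ranked 33 of 21938 protein-coding genes, where the median gene had 0.95, the 95th percentile 4.87 and the 99th percentile 7.62. Regions covered 19.7% of the window, with a median width of 1231 bp over all 27. The gap between midpoints of neighbouring shared regions was 5.83 kb in the median, from 1.09 to 17.6 kb, so the binding was spread over the window and not piled at 1 place.

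Among the shared Stra6 regions, ab1 scores ran from 57.6 through a median of 246 to 3100, and ab2 scores from 52.0 through 161 to 2005. The far upstream region (chr9:58035169-58036436), 28.0 kb before the longest TSS, scored 3100 with ab1, 2005 with ab2 and 553 with ab3, and 98.6%, 98.8% and 97.6% of the peaks of each list scored lower. The value 3100 is shared by 661 ab1 peaks, so it does not rank regions among them. The widest region (chr9:58110316-58114005), 3690 bp long and 48.4 kb after that TSS, also scored 3100 with ab1, with 1668 for ab2 and 133 for ab3. A region in intron 1 at 33.2 kb (chr9:58095883-58097997) scored 1562, 1030 and 102. The 6 regions with an ab3 peak were those with the 6 highest ab1 scores, the lowest of them 1468, while the highest ab1 score without ab3 was 1120.

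With a limit of 1000 on the ab1 score, chosen after the scores were seen, 7 of the 9 shared regions of the set at or above it had an ab3 peak, beside 84.2% genome-wide. Below it, 1 of 32 had one, at Rxrg, beside 11.1% genome-wide. Over the 41 shared regions, ab1 and ab2 scores ranked alike, with a Spearman coefficient of 0.883, and over 32210 regions of the genome it was 0.845. Both values are descriptions across regions, which share their libraries. The ab1 score was above the ab2 score in 37 of the 41 regions, and in 89.0% of regions genome-wide.

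**Figure D2:**
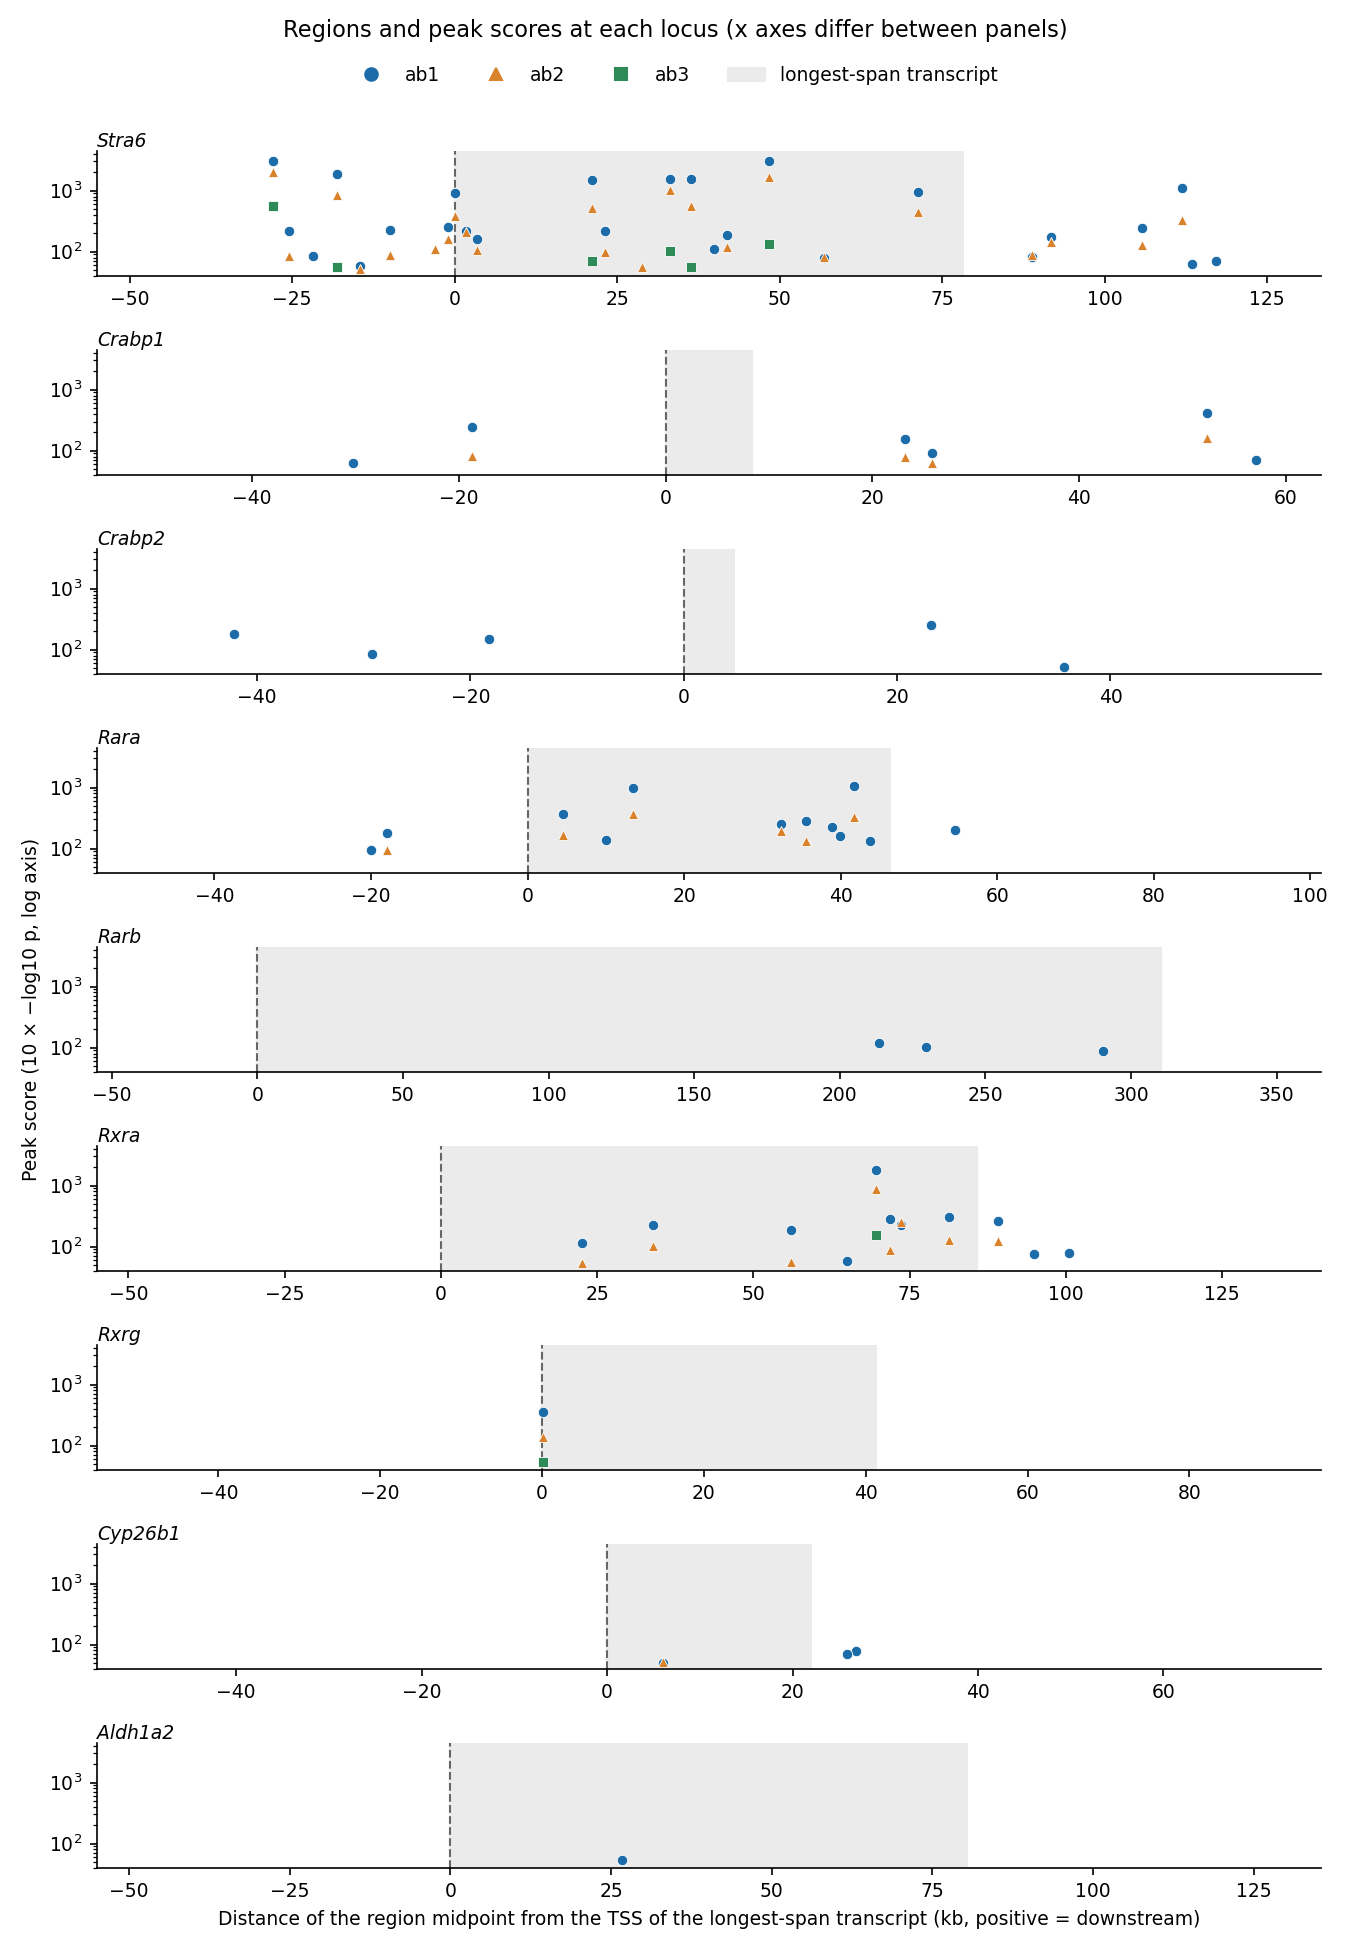
Peak score of each antibody (y axes, 10 × −log10 p, log scale) against the distance of the region's midpoint from the TSS of the longest-span transcript in kb (x axes, different in each panel), for the 69 regions. Points are the highest peak of an antibody in a region, grey marks the transcript and the dashed line its TSS. Stra6 regions lie on both sides of the TSS, those of Rxra in and beyond the gene, and the single Rxrg region at the TSS.

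The placement of the Stra6 regions depended on the annotation. The longest-span transcript (chr9:58063788-58142031, plus strand) is a noncoding transcript with a retained intron. The longest protein-coding transcript starts at 58079310, and the transcripts marked as principal start at 58129088, 58129349, 58134075 and 58134665. Curated RefSeq mRNAs also start from 58129088 on. Of the 21 shared regions, 11 lay in the longest-span transcript and 2 in the principal transcript that begins at 58129088. On the opposite strand, 15 lay in Ccdc33 and 2 in Islr.

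The Stra6 region at the longest TSS (chr9:58063320-58064539) scored 908 with ab1 and 389 with ab2 and had no ab3 peak. Near the coding starts, a region in exon 2 of the longest transcript (chr9:58134702-58135579) scored 946 with ab1 and 451 with ab2, also without ab3. Its midpoint was 331 bp from an annotated Stra6 start and 476 bp from the nearest curated RefSeq start. RefSeq promoter windows, from 250 bases before to 50 after a start, were at hand for 8 of the genes, and of these 16 windows 2 overlapped a shared region, 1 of Stra6 and 1 of Rxrg, beside 16.6% of all promoter windows.

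**Figure D3:**
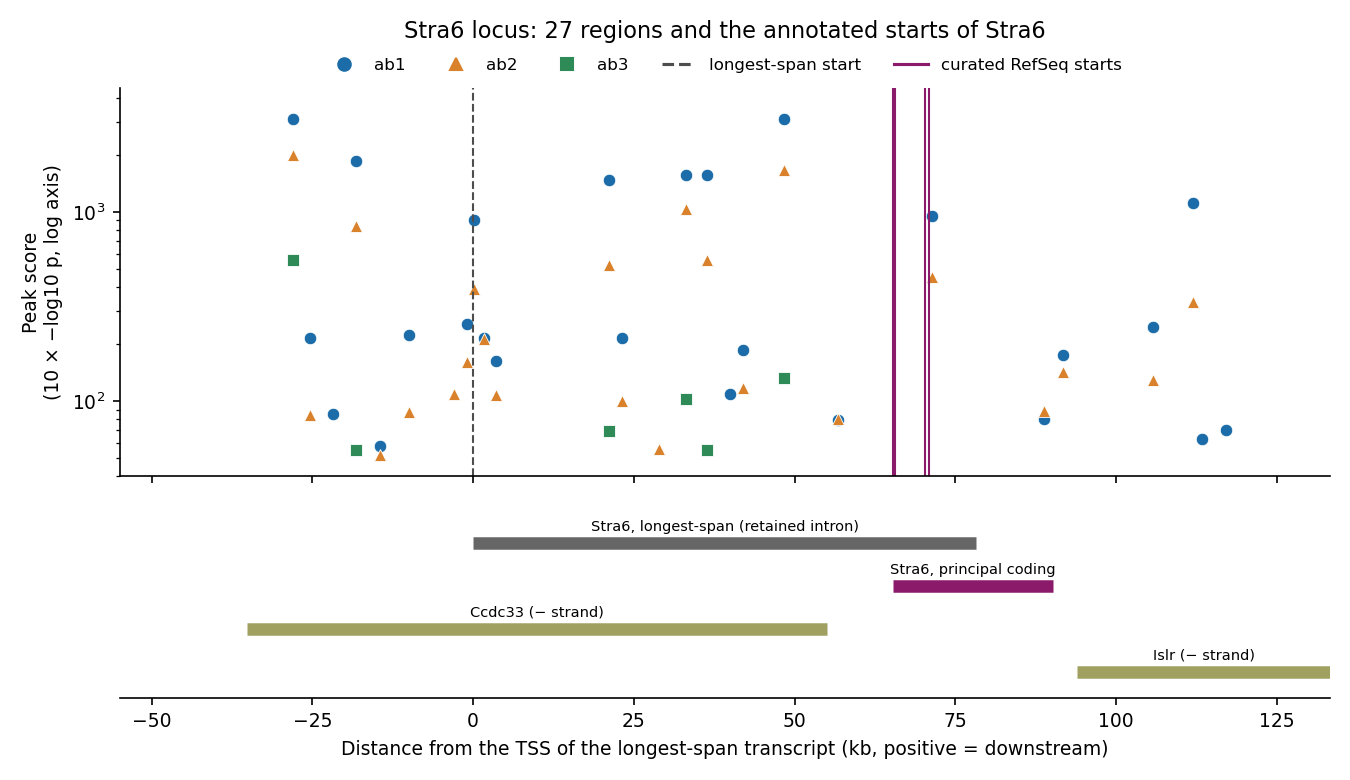
The 27 Stra6 regions: peak score by antibody (y axis, 10 × −log10 p, log scale) against distance from the longest-span TSS in kb (x axis), above bars for 2 Stra6 transcripts and the genes Ccdc33 and Islr on the minus strand. The 6 regions with ab3 lie between 28.0 kb before and 48.4 kb after the longest-span TSS, and the curated RefSeq starts (vertical lines) lie beyond them, next to a region with scores of 946 and 451.

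The closest-gene score of Stra6, in which each shared region is weighted by a decay of 5000 bp from the TSS it is closest to, was 3.22, rank 1 of 16084 genes with a region. The next gene had 3.09. Of the 8 regions assigned to Stra6, the 4 closest to the TSS of the noncoding transcript gave 3.01, or 93.3% of the score, and none of these had an ab3 peak. With the longest protein-coding transcript of each gene the score was 0.824 (rank 4295 of 9599), and with curated RefSeq mRNA starts 0.909 (rank 4336 of 9439). With the closest of all annotated starts it was 4.08, rank 64 of 15411. From the peaks of 1 antibody alone the score was 3.75 (ab1), 3.78 (ab2) and 0.0142 (ab3), or 2.51 ± 2.17 (SD, n = 3). Rank 1 was kept with ab3 left out, and was 3091 without ab1 and 3107 without ab2.

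**Figure D4:**
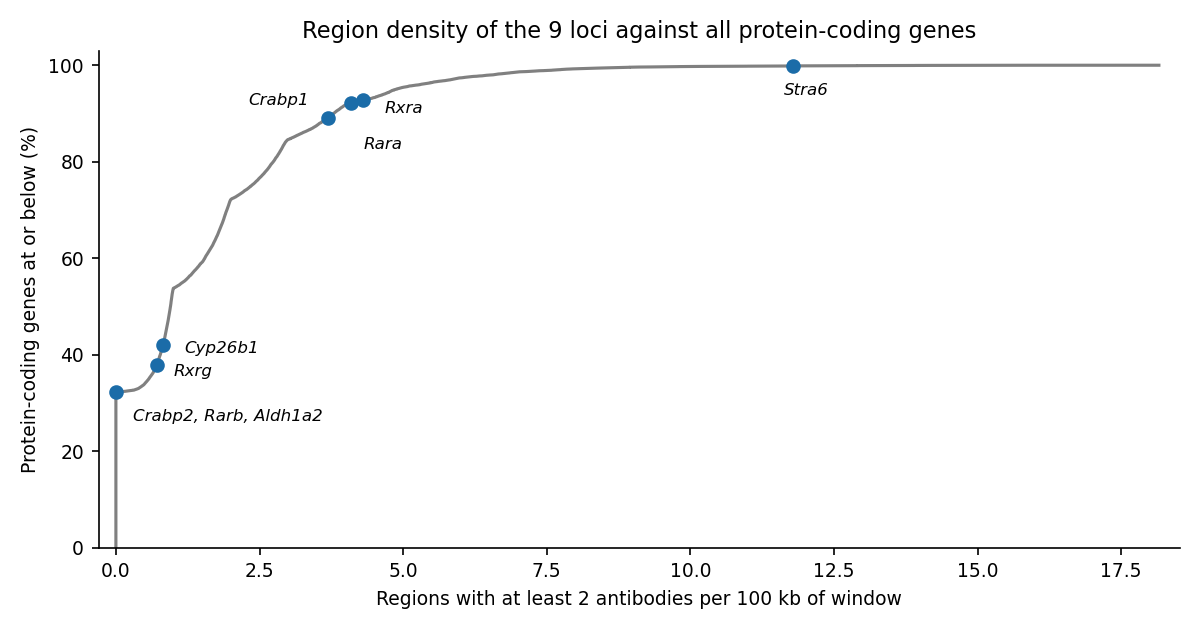
Percentage of 21938 protein-coding genes (y axis) at or below a given density of shared regions per 100 kb of window (x axis, gene span plus 50 kb on either side), with the 9 loci as points. Stra6 lies at 11.8, Rxra, Rara and Crabp1 between 3.69 and 4.31, Cyp26b1 and Rxrg under the median of 0.95, and 3 loci at 0.

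Among the cytosolic binding proteins, Crabp1 had shared regions and Crabp2 had none. Crabp1 (chr9:54764748-54773110, plus strand) had 6, 4 and 0 peaks of ab1, ab2 and ab3 and 4 shared regions, at a density of 3.69 per 100 kb that exceeded 89.1% of genes. None of the 6 regions lay in the gene itself. The strongest shared region (chr9:54816401-54817733) lay 52.3 kb after the TSS and scored 413 with ab1 and 161 with ab2. The closest to the TSS, 18.7 kb before it, scored 243 and 81.4. All 4 shared regions had an extended E-box in their central 200 bp, as had 59.6% of all shared regions genome-wide.

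Crabp2 (chr3:87948666-87953376, plus strand), whose product delivers retinoic acid to nuclear receptors, had 5 peaks of ab1 and none of ab2 or ab3. Of these, 4 lay at the start of a neighbouring gene, 153 bp from Hdgf, 33 bp from Mrpl24, 59 bp from Isg20l2 and 781 bp from Nes, which encodes the neural progenitor filament nestin. Their ab1 scores were 183, 85.7, 147 and 253 in that order. The region closest to the Crabp2 TSS, 18.3 kb away, was the one at Isg20l2. Across the 9 loci, 10 regions lay within 1 kb of the longest-span start of a protein-coding gene. Of these, the 7 at neighbouring genes were of ab1 alone and the 3 at Stra6 and Rxrg were shared, beside 39.3% of ab1 alone among such regions genome-wide.

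The receptor genes Rara and Rxra were bound within their introns with ab1 and ab2. Rara (chr11:98927818-98974162, plus strand) had 13, 7 and 0 peaks of ab1, ab2 and ab3, in 12 regions of which 6 were shared, 4.10 per 100 kb and above 92.1% of genes. The region with the highest ab1 score (chr11:98968015-98971005, intron 4) scored 1051 with ab1 and 327 with ab2. That with the highest ab2 score (chr11:98939937-98942682, intron 1) scored 974 and 372. The shared region closest to the longest-span TSS (chr11:98931416-98933313), 4.55 kb after it, scored 376 and 165. At alternative starts, a region in intron 2 (chr11:98959362-98961129, scores 255 and 194) lay 166 bp from the start of a shorter transcript, and a region of ab1 alone (score 137) lay 191 bp from one of the starts marked as principal. The closest-gene score of Rara was 0.403 (rank 7717) with longest-span transcripts, 2.80 (rank 204) with all annotated starts and 3.17 (rank 35) with curated RefSeq starts.

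The intron 2 region of Rara held the single DR5 element found in the 41 shared regions. A DR5 is the direct repeat that RAR and RXR heterodimers are known to bind, and it was searched on both strands. It was found 396 bp before the start of the shorter transcript. DR5 elements occurred in 2.44% of the shared regions of the set and in 0.267% of all shared regions (86 of 32261). The match is a description of letters in the reference and not a measure of receptor binding. Capitals mark the DR5 element.
Rara DR5 element, chr11:98960001-98960030: ccaggcgAGTTCAGCAAGAGTTCAgccgaa

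Rxra (chr2:27677201-27762957, plus strand) encodes an RXR and had 11, 8 and 1 peaks of ab1, ab2 and ab3. Of 11 regions, 8 were shared, 4.31 per 100 kb and above 92.7% of genes. The intron 4 region (chr2:27745682-27747955), 69.6 kb after the TSS, scored 1767 with ab1, 876 with ab2 and 154 with ab3 and held 9 extended E-boxes, the highest number of the 69 regions. The other 7 shared regions had ab1 scores from 114 to 307. The region closest to the TSS was 22.6 kb from it (114 and 54.2), while a region with scores of 229 and 101 (chr2:27710618-27711539) lay 496 bp from an alternative start. The closest-gene score was 0.0120 with longest-span transcripts, 1.89 with all annotated starts and 1.07 with curated RefSeq starts.

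Rxrg (chr1:167598384-167639623, plus strand), a second RXR gene, had 1 region (chr1:167598088-167598984) with 1 peak of each antibody, and no other peak in 141 kb. It scored 349 with ab1, 138 with ab2 and 53.9 with ab3, and its midpoint lay in exon 1, 152 bp after the TSS. Of the shared regions of the set, it was the single one within 1 kb of the longest-span TSS of a coding transcript. Its ab1 score exceeded 73.5% of ab1 peaks and its ab3 score 8.53% of ab3 peaks, so the site ranked low in the ab3 list. The 250 bases before the RefSeq start, which the region covers, held no extended E-box, and the E-box printed above lay in exon 1.
Rxrg before the start, chr1:167598112-167598361: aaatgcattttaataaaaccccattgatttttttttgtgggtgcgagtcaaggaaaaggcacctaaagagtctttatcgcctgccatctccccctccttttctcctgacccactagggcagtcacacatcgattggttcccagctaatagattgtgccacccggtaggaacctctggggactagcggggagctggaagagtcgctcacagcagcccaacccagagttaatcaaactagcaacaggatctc

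Rarb, a receptor gene that is itself a known target of retinoic acid, had 3 peaks, all of ab1. They lay in introns 2 and 3 of the longest-span transcript (chr14:16509065-16819156, minus strand), at least 213 kb from its TSS, with scores of 118, 101 and 87.7. In that order they were 29845, 13628 and 46179 bp from the closest annotated Rarb start, which belongs to shorter transcripts. Each had an extended E-box in its centre, as had 57.8% of ab1-alone regions genome-wide, but none was shared. Curated RefSeq mRNAs of Rarb start at 16575476, near the starts of these shorter transcripts, and at 17082331, which is 263 kb upstream of the longest-span TSS. The window extended to the latter held the same number of regions, 3, with 0 shared.

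Of the 2 enzyme genes, Cyp26b1, which removes retinoic acid, had 1 shared region, as did the median protein-coding gene, and Aldh1a2, which makes it, had none. Cyp26b1 (chr6:84571944-84593908, minus strand) had 3, 1 and 0 peaks of ab1, ab2 and ab3 and 1 shared region (chr6:84587344-84588344) in exon 2. This scored 50.7 with ab1 and 51.3 with ab2, next to the lowest value of 50 that either list holds. It lay 161 bp from an alternative start, and 6.06 kb from the longest-span TSS. The strongest peak, of ab1 alone, scored 77.8 and lay 26.8 kb after the TSS. Aldh1a2 (chr9:71215789-71296243, plus strand) had a single peak of ab1 in intron 1, 26.7 kb after the TSS, with a score of 53.9, and none of ab2 or ab3.

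The peak numbers ordered the loci as Stra6, then Rara with 6.67 ± 6.51 and Rxra with 6.67 ± 5.13, then Crabp1 with 3.33 ± 3.06 (SD, n = 3). Crabp2 followed with 1.67 ± 2.89, Cyp26b1 with 1.33 ± 1.53, Rarb with 1 ± 1.73, Rxrg with 1 ± 0 and Aldh1a2 with 0.333 ± 0.577. The SD over antibodies was wide at all loci but Rxrg, which had 1 peak of every antibody. At Crabp2, Rarb and Aldh1a2, neither ab2 nor ab3 had a peak. The ranges of mean ± SD of neighbours in this order overlapped, Stra6 and Rara included, except for the pair of Rxrg and Aldh1a2. The same libraries, with lists of unlike length, serve every locus, so this overlap cannot tell whether loci differ. Within each antibody Stra6 had the highest number of peaks, a description only, since Stra6 was selected on a score from these same peaks. The median density of shared regions over the 9 loci was 0.820 per 100 kb, beside 0.95 over all protein-coding genes.

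The extended E-box, which was not used to choose the loci, was present at the centre (200 bp) in 21 of the 41 shared regions (51.2%, 95% Wilson interval 36.5 to 65.7), beside 59.6% of all 32261 shared regions. In windows of 200 bp that began 1000 bp outside the regions, it was found in 22.0% on the left and 19.5% on the right, beside 22.3% on both sides genome-wide. The intervals cover counting error only, and neighbouring regions of a locus are not independent. At Stra6, 7 of 21 centres held it (33.3%, interval 17.2 to 54.6), against 28.6% and 14.3% in the flanks. At the other 8 loci 14 of 20 centres did (70%, interval 48.1 to 85.5), against 15% and 25% in the flanks. The intervals of Stra6 and the other loci overlap, and the difference was not tested.

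The share depended on the part of the region that was searched. Counted over the whole region, 20 of 21 shared Stra6 regions (95.2%) and 40 of 41 of the set (97.6%) held an extended E-box, beside 90.3% genome-wide. The regions of the set were wider, with a median of 1296 bp (1376 bp at Stra6) against 865 bp, and per kb they had 2.06 E-boxes (1.90 at Stra6) against 2.30 genome-wide. At the centre of the highest peak in each region the share was 47.6% at Stra6, 65% at the other loci and 60.2% genome-wide. The widest Stra6 region, printed above without capitals, had 3 E-boxes outside its centre. Of the 31 sites in the centres, 20 were CAGATG or its reverse complement (64.5%), 10 CAGCTG (32.3%) and 1 CATATG (3.23%), beside 55%, 31.7% and 13.4% genome-wide. The centres had a median GC content of 56%, beside 51%.

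**Figure D5:**
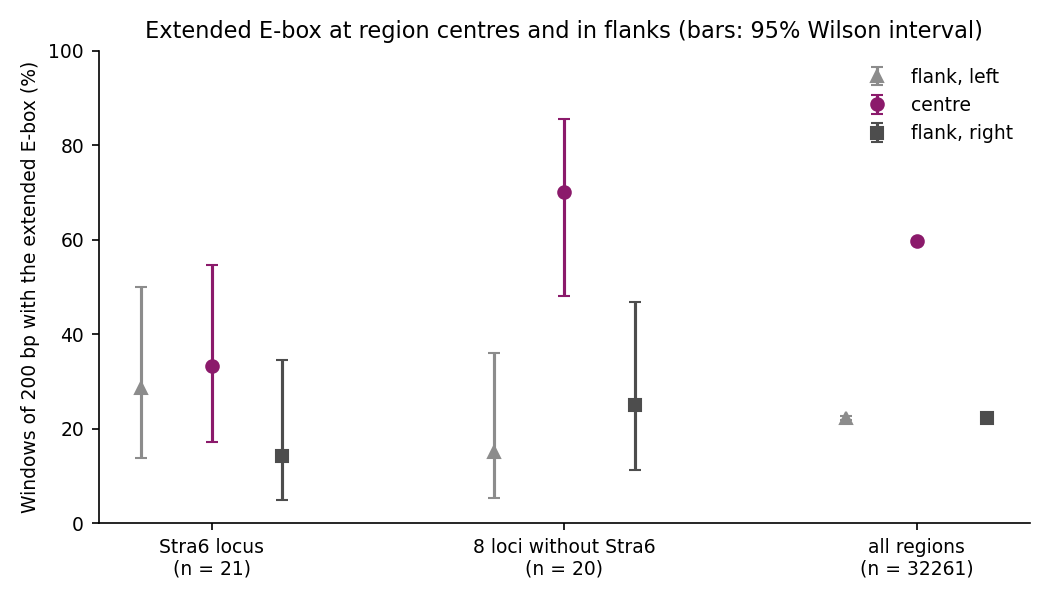
Percentage of 200 bp windows with the extended E-box (y axis) at region centres and in flanks 1000 bp outside, for shared regions of Stra6, of the other 8 loci and of the genome (x axis). Points are shares and bars 95% Wilson intervals. The centre stands above both flanks at the other 8 loci (70%) and genome-wide (59.6%), while at Stra6 (33.3%) its interval overlaps those of both flanks.

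Of the 41 shared regions, 3 lay within 1 kb of the longest-span TSS of any gene (7.32%, interval 2.52 to 19.4), beside 15.7% genome-wide. These were a pair of Stra6 regions, 950 bp before and 142 bp after the noncoding start, and the Rxrg region. Counted to any annotated start of the gene itself, 7 regions lay within 1 kb. In all, 25 of the 41 lay within the span of their own gene and 21 were closest to its TSS. No genome-wide share stands beside these counts to own genes. The windows are laid around the genes, so nothing about the set is read from them. The 26 regions of ab1 alone had a median ab1 score of 86.7, against 255 in the shared regions, and 14 of them (53.8%) had an extended E-box in the centre, beside 57.8% of ab1-alone regions genome-wide.

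The window's limit of 50 kb fell among peaks at Stra6. The region just inside the limit, at Crabp1, lay 48.8 kb from the gene and had ab1 alone with a score of 70.6. The region just outside, 50.9 kb from Stra6, had all 3 antibodies with scores of 2415, 868 and 112.

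Other genes of the retinoid pathway were read from a list of 31. Of these, 21 had a shared region (67.7%, beside 67.6% of protein-coding genes), and 7 had a region with all 3 antibodies (22.6%, beside 26.7%). Meis2, a homeobox gene known to respond to retinoic acid, had 12 shared regions, the receptor coactivator Ncoa1 had 11 and Dgat1, which can esterify retinol, had 6. Fabp5, a lipid carrier that can bind retinoic acid, had 4, as did Stra6l. No shared region was found at Adh7, Aldh1a1, Cyp26a1, Lrat, Ncor1, Nr4a2, Rbp4, Rdh10, Rdh11 and Rxrb. The median density of the list was 1.11 per 100 kb.

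By the distance of log2(peak number + 1) over the 3 antibodies, the protein-coding genes most like Stra6 were Tenm3 (27, 22 and 6 peaks of ab1, ab2 and ab3, distance 0.06), Tmem117 (29, 23 and 6, distance 0.10) and Kcnip1 (29, 21 and 6, distance 0.16). Their windows were longer, at 547, 567 and 452 kb against 178 kb, and none overlapped that of Stra6.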

How the data were processed

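NEUROD2 ChIP-Seq was carried out on E14.5 BALB/c cortex with 3 antibodies, 1 library each. Reads were aligned by the authors with Bowtie to the mm10 build, and duplicate and multiply mapped reads were dropped. MACS then called the peaks of every antibody separately, with the GFP reads of the matching host as control. The deposited score of each peak is 10 times the −log10 of the MACS p-value, starts at 50 and is not scaled for depth. Scores were therefore compared within an antibody or given side by side.

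Peaks sharing at least 1 bp were merged with Python 3.11.15, numpy 2.4.6 and scipy 1.17.1. The GFP libraries were not analysed here. Positions count from 1. Transcripts came from GENCODE M21 (141730 transcripts of 55413 genes) and RefSeq GRCm38.p6, whose chromosome lengths matched mm10. The reference is of another strain, so BALB/c variants in motifs were not seen. Crabp2 had no RefSeq promoter entry. Shares have 95% Wilson intervals.

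The members, the pathway list and the alternatives were chosen with earlier results of these data known, so no p-value was computed. Named regions were, per locus, that with the highest ab1 score, that closest to the TSS and up to 3 with all antibodies. Other regions in the text, such as those near alternative starts, were chosen after their values were seen. Of the pathway list, the 5 genes with most shared regions (ties by name; those tied with the fifth are also given) and those with none were named, apart from genes that are not reported here, and the 3 genes most like Stra6 in peak number. Merging, motif search and scoring were tested on simulated data. Alternatives were the overlap, a score of at least 100, each antibody left out, other windows, transcripts and region centres, motif, window size, decay length and, added after seeing the data, other starts and the set without Stra6.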

Additional observations from a re-analysis of the deposited data

How the results depend on the processing

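Of 70 alternative values under 18 settings, 50 stayed within limits and 20 moved. The limits were 1.5 times for a count, the 95% Wilson interval for a share and 1 SD over the antibodies (2.17) for the Stra6 score. Leaving out 1 antibody at a time gave 44 to 70 regions, 8 to 41 shared regions, 3 to 6 loci with one, 37.5% to 51.2% of centres with the extended E-box, 7.32% to 12.5% within 1 kb of a TSS and a Stra6 score of 0.0142 to 3.22. Without ab1 there were 44 regions, 8 shared ones, 3 loci with one and a Stra6 score of 0.0147, and without ab2 70 regions, 8 shared ones, 3 loci and a score of 0.0142, while leaving out ab3 changed none of these values. The count of regions with all 3 antibodies has no value with an antibody left out.

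With a window of the gene span plus 10 kb there were 44 regions and 27 shared ones. Regions with all 3 antibodies numbered 4 at a peak score of at least 100, 15 with a window of 100 kb and 2 without the Stra6 locus. Without Stra6, 20 shared regions were left and the E-box share was 70%. With any CANNTG the share was 75.6%, with 68.3% and 65.9% in the flanks, and with the central 400 bp it was 78.0%. With protein-coding transcripts 2.44% of shared regions lay within 1 kb of a TSS and the Stra6 score was 0.824. It was 0.909 with curated RefSeq starts and 6.73 (rank 30) with a decay length of 50000 bp. With a decay length of 1000 bp it was 1.47 (rank 2), a drop of over 1.5 times that lay within the wide SD. The cause was not tested where the construction of the alternative does not give it. No paired analysis was possible because no peak list of a GFP library was analysed here, the GFP reads entering only as the control of the peak caller. With 1 library per antibody and no read counts, a locus without an ab3 peak cannot be told apart from one below the reach of that library.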
